A study of Mus musculus with 20 samples.

Results

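The small proline-rich proteins of the Sprr1 and Sprr2 groups were described in the mouse uterus 2 h or 24 h after a single injection of an estrogenic compound. Their members were taken by name, as every non-control probe of the array whose gene name began with Sprr1 or Sprr2, which gave 12 probes for 11 genes (Sprr1a, Sprr1b, Sprr2a with probes A and B, Sprr2b, Sprr2d, Sprr2e, Sprr2f, Sprr2g, Sprr2h, Sprr2j and Sprr2k) out of 41174 probes. As a family they were chosen by their measured difference between E2 at 24 h and vehicle, so every comparison of Sprr probes with the E2 24 h arrays is given below as values only, with no test.

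Female C57bl6/J mice of at least 10 weeks were ovariectomized and left for 10 to 14 days, so that all 7 groups lacked ovarian hormones. Each mouse then received 100 µl sesame oil (vehicle) under the skin, alone or with 250 ng estradiol (E2), 750 µg bisphenol A (BPA) or 750 µg HPTE, a metabolite of the pesticide methoxychlor. BPA and HPTE both carry hydroxyphenyl rings on a central carbon, which bears methyl groups in BPA and a trichloromethyl group and a hydrogen in HPTE. RNA of 1 uterus was hybridized per one-colour Agilent array, on 3 arrays for vehicle, E2 2 h, BPA 2 h, BPA 24 h, HPTE 2 h and HPTE 24 h and on 2 arrays (replicates 2 and 3) for E2 24 h. Vehicle uteri were labelled as 24 h samples and served both times.

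Levels are given as scaled intensity, the processed intensity of a probe after the 75th percentile of each array was set to a common value of 1679 (arbitrary units). Differences are log2 differences of group means from a limma fit over all 20 arrays. A probe was called when its two-sided Benjamini-Hochberg adjusted p over 32456 tested probes was under 0.05. The scanner software flags a spot as well above background or not, and the 5 comparisons with vehicle use the same 3 vehicle arrays through which the family was noticed. Levels were compared between groups for 1 probe at a time and never between probes. In whole uterus, a change in the number of cells of a type and a change in RNA per cell cannot be told apart.

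Some transcripts of other tissues moved with the groups. All 10 sperm cell transcripts listed (such as Prm1 and Tnp2) were called lower than vehicle in each of the 5 tested groups and in E2 24 h, and their summed scaled intensity was 58500 to 198000 on vehicle arrays, 581 to 1390 on E2 24 h arrays and 2430 to 3310 on HPTE 24 h arrays. The 11 pancreas transcripts on the array summed to 1310 to 1650 on vehicle arrays, 1110 to 4900000 on E2 2 h arrays and 10100 to 25500 on E2 24 h arrays, with 11 of 11 called higher in E2 2 h, 3 of 11 in E2 24 h (Cpa1, Cela2a and Pnlip, which passed the filter on dim probes through the E2 24 h arrays alone) and none in BPA or HPTE at either time. On E2 2 h replicates 1, 2 and 3 the pancreas transcript Cpa1 read 4.18, 447000 and 42300. The part of sperm cell and pancreas transcripts in the Sprr results was not tested. The 6 uterine markers (Esr1, Hoxa10, Hoxa11, Msx1, Wnt7a and Pax8) were well above background on every array.

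Sprr genes encode short proteins rich in proline that are cross-linked by transglutaminases into the cornified envelope, the protein shell of squamous cells of skin and other stratified epithelia. They lie side by side in the epidermal differentiation complex on mouse chromosome 3, among the genes for involucrin, loricrin and S100 proteins. The uterine lumen and glands are lined by a simple epithelium that does not normally cornify, and Sprr2 transcripts are known to accumulate there under estrogen. In the RefSeq order of this stretch, Sprr2a1, Sprr2a2, Sprr2a3, Sprr2b, Sprr2c-ps, Sprr2d, Sprr2e, Sprr2f, Sprr2g, Sprr2h, Sprr2i, Sprr2j-ps and Sprr2k are followed by Sprr1b, Sprr3, Sprr1a and Sprr4. RefSeq now lists Sprr2g and Sprr2j as transcribed pseudogenes.

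The Sprr2 genes resemble each other, so the probe sequences decide which transcript a value stands for. Of the 10 tested probes, each of 60 bases, 9 are shown 5′ to 3′ with their mm7 positions as given in the array files. No exon or UTR annotation of mm7 was used here. Capitals mark bases in runs of 12 or more that occur in the probe of another Sprr gene.
Sprr1a (chr3:92590070-92590129, minus strand): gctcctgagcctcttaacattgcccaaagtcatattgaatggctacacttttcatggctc
Sprr2a probe A (chr3:92252807-92252866, plus strand): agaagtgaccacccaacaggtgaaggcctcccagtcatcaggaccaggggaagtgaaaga
Sprr2a probe B (chr3:92255256-92255315, plus strand): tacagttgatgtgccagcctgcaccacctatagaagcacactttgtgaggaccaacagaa
Sprr2d (chr3:92446836-92446895, plus strand): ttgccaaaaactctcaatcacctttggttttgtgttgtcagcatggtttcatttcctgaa
Sprr2f (chr3:92472374-92472433, plus strand): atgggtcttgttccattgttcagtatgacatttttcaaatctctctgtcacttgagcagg
Sprr2b (chr3:92423564-92423623, plus strand): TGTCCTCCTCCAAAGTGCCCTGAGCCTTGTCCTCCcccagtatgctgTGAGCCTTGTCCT
Sprr2e (chr3:92458962-92459021, plus strand): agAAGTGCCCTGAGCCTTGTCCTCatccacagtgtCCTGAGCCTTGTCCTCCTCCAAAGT
Sprr2j (chr3:92524951-92525010, plus strand): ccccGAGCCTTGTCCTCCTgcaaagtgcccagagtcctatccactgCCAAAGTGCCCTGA
Sprr2k (chr3:92539423-92539482, plus strand): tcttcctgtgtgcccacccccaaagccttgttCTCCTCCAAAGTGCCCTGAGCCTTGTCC

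The probes of Sprr2b, Sprr2e and Sprr2k shared 1 run of 20 bases, AAGTGCCCTGAGCCTTGTCC, which occurred in no other probe of the array. The longest run was 28 bases between Sprr2b and Sprr2k and 22 bases between Sprr2b and Sprr2e, and the Sprr2j probe shared 15 bases with that of Sprr2e. Sprr1a, both Sprr2a probes, Sprr2d, Sprr2f, Sprr2g, Sprr1b and Sprr2h had no run longer than 10 bases in common with the probe of another family gene. The Sprr2e probe was also assigned by the array files to the RefSeq transcript of Sprr2i. Values of Sprr2b, Sprr2e, Sprr2j and Sprr2k are therefore uncertain as to which of these genes gave the signal.

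Of the 12 probes, 10 entered the tests. The Sprr1b probe was not well above background on any of the 20 arrays, with scaled intensities of 2 to 5.18. Sprr2h was well above background on 1 array only, E2 24 h replicate 3, at a scaled intensity of 205 against 9.11 on the other E2 24 h array and at most 4.61 on the remaining arrays. Sprr2d was well above background on 8 arrays, namely both E2 24 h arrays, all 3 HPTE 24 h arrays and 1 array each of E2 2 h, BPA 2 h and BPA 24 h. The other 9 tested probes were well above background on all 20 arrays. No member spot was saturated or marked as an outlier.

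At 24 h after E2, 9 of the 10 tested Sprr probes were higher on both arrays than on any other array of the study, as were 17.0% of all probes tested. The family was chosen through this difference, so nothing is read from the count. Sprr1a, which encodes a cornified envelope precursor also known from injured and stressed cells, had scaled intensities of 84.6, 100 and 119 on the vehicle arrays and of 6301 and 11468 on the E2 24 h arrays. This is a log2 difference of 6.40 (SE 0.47), or 84.7-fold. The E2 2 h arrays gave 131, 83.8 and 143 and overlapped vehicle.

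For Sprr2f the vehicle arrays gave 482, 567 and 524, the E2 2 h arrays 1207, 528 and 992, and the E2 24 h arrays 104657 and 119969. The log2 difference between E2 24 h and vehicle was 7.74 (SE 0.49), or 214-fold. The pair of E2 24 h arrays differed by a factor of 1.15, against a factor of 1.18 between the highest and lowest vehicle array. Sprr2d lay at 7.92, 10.4 and 14.0 on the vehicle arrays, none of them well above background, and at 1600 and 3275 on the E2 24 h arrays. Its level in E2 24 h was at least 167-fold that of vehicle.

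The Sprr2a transcript was measured by 2 probes that gave different pictures. Probe A read 34.3, 70.8 and 51.9 on the vehicle arrays and 5519 and 5722 on the E2 24 h arrays, a log2 difference of 6.81 (SE 0.42), or 112-fold. Probe B read 166517, 156013 and 162526 on the vehicle arrays and 144259 and 159623 on the E2 24 h arrays, a log2 difference of -0.09 (SE 0.11). Over all 20 arrays probe B stayed between 114684 and 188383. The array files assign both probes to the RefSeq transcript of Sprr2a, and probe B to a further predicted transcript (XM_986081) that matched no gene of the RefSeq table used here. The transcripts most like probe B over 20 arrays were led by the ribosomal protein transcripts Rpl17 (Pearson r = 0.897) and Rpl38 (r = 0.895). Probe A instead followed the other tested Sprr probes. Among probe A, Sprr1a, Sprr2d and Sprr2f, r lay between 0.96 and 0.975 for the 6 pairs. With Sprr2b, Sprr2e, Sprr2g, Sprr2j and Sprr2k, r of probe A ran from 0.921 (Sprr2g) to 0.963 (Sprr2k). Without the E2 24 h arrays, through which the family was chosen, it was 0.664 (Sprr2f) to 0.799 (Sprr1a) with the former. With the latter it was then 0.164 (Sprr2g) to 0.558 (Sprr2k).

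The probes with shared sequence and Sprr2g gave smaller differences between E2 24 h and vehicle. Sprr2e read 333, 458 and 525 on vehicle arrays and 5320 and 5969 on E2 24 h arrays (log2 difference 3.71, SE 0.25). Sprr2b read 814, 909 and 923 against 6786 and 7920 (3.06, SE 0.20). Sprr2j, a transcribed pseudogene, read 241, 287 and 304 against 2845 and 3135 (3.44, SE 0.22).

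Sprr2k gave 468, 578 and 619 on the vehicle arrays and 3362 and 4117 on the E2 24 h arrays, a log2 difference of 2.76 (SE 0.21). For Sprr2g the vehicle arrays read 90.7, 214 and 184 and the E2 24 h arrays 1699 and 2026 (log2 difference 3.60, SE 0.37). Neither gene had an E2 24 h array near the vehicle range. Sprr2g has no exact run longer than 8 bases in common with another family probe. Its probe holds cctgaaccttgtcc, where those of Sprr2b, Sprr2e and Sprr2k hold cctgagccttgtcc. Runs with mismatches were not searched, and binding of other family transcripts to the Sprr2g probe was not tested.

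Across the 10 tested probes, the median log2 difference between E2 24 h and vehicle was 3.65, against -0.15 over all probes tested, and stayed at 3.65 with Sprr2d at its bound. Over all probes 26.3% were called higher and 37.6% lower in this comparison, from which nothing is read about the family. Against E2 2 h the median Sprr difference was 3.47. Between arrays of 1 slide (E2 24 h replicate 3 and vehicle replicate 3), the log2 differences were 7.84 for Sprr2f, 6.78 for Sprr2a probe A and 6.59 for Sprr1a.

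**Figure D1:**
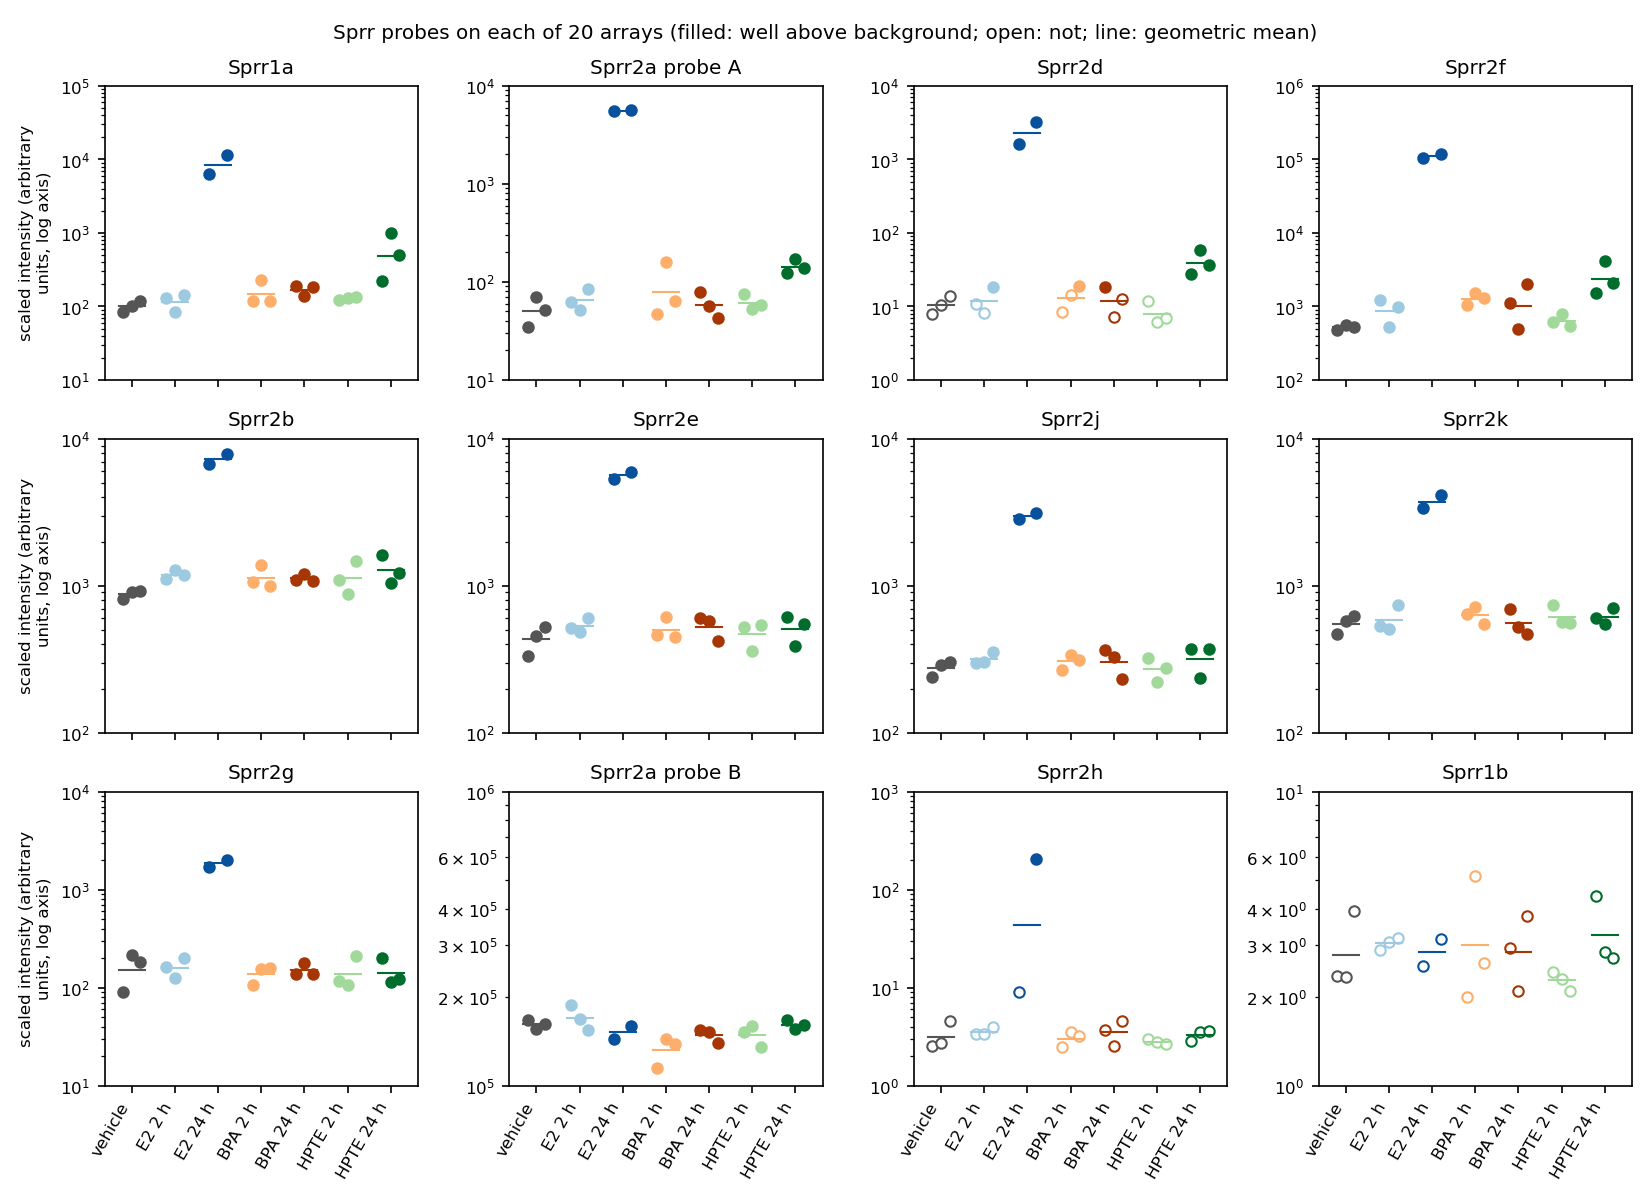
Scaled intensity (arbitrary units, log axis, a separate scale per panel) of the 12 Sprr probes on each of 20 arrays in 7 groups; filled points were well above background, open points were not, and lines are geometric means of a group. The E2 24 h arrays stand above all others for 9 of the 10 tested probes, the HPTE 24 h mean comes next for Sprr1a, Sprr2a probe A, Sprr2d and Sprr2f (with a BPA array inside the HPTE 24 h range for all of these but Sprr2d), and Sprr2a probe B is flat.

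HPTE at 24 h raised 5 of the 10 tested Sprr probes over vehicle and lowered none, against 14.9% of all probes called higher and 19.1% called lower. The median log2 difference of the family was 0.39, against -0.06 over all probes. In each of the 5 the 3 HPTE arrays lay above all 3 vehicle arrays, as they did for 22.2% of all probes. These were Sprr1a, Sprr2f, Sprr2d, Sprr2a by probe A and Sprr2b.

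Sprr1a read 221, 996 and 505 on the HPTE 24 h arrays, against at most 119 on vehicle arrays. The fitted log2 difference was 2.26 (SE 0.42, 4.79-fold, limma adjusted p = 0.00099). Replicate 2 was the highest and replicate 1 the lowest, a spread of 4.51-fold within the group.

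Sprr2f read 1508, 4117 and 2070 after HPTE, with the same replicate highest, and rose by a log2 difference of 2.16 (SE 0.44, 4.48-fold, limma adjusted p = 0.00178). Sprr2d read 27.9, 58.0 and 36.4, well above background on all 3 arrays, and was at least 2.83-fold higher than vehicle (limma adjusted p = 0.00427). Replicate 2 was again the highest of the 3. Sprr2a probe A read 124, 173 and 138 and rose by 1.52 (SE 0.38, 2.86-fold, limma adjusted p = 0.00623). The smallest of the 5 was Sprr2b, at 1608, 1050 and 1230, with a log2 difference of 0.54 (SE 0.18, 1.45-fold, limma adjusted p = 0.0333). Its call was lost when any one of 5 of the 6 compared arrays was left out (all but HPTE 24 h replicate 2), with no scaling and with the compared groups fitted alone.

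The remaining 5 probes were not called. Sprr2e read 615, 389 and 546 after HPTE at 24 h, inside and just above the vehicle range, with a log2 difference of 0.24 (95% confidence interval -0.23 to 0.71). The differences were 0.21 for Sprr2j (-0.21 to 0.63), 0.16 for Sprr2k (-0.23 to 0.56), -0.12 for Sprr2g (-0.82 to 0.59) and -0.01 for Sprr2a probe B (-0.21 to 0.20). The intervals of Sprr2e, Sprr2j and Sprr2k reach no higher than 0.71, below the lower end of the intervals of Sprr1a (1.35), Sprr2f (1.22) and Sprr2a probe A (0.72). That of Sprr2b, which was called, ran from 0.15 to 0.92 and overlapped those of Sprr2e, Sprr2j, Sprr2k and Sprr2a probe A. The probes were sorted into called and not called by this same comparison, and no test was made between probes.

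The HPTE response stayed far below that of E2 at the same time. All 3 HPTE 24 h arrays lay below both E2 24 h arrays for 9 of the 10 probes, and the median log2 difference was -3.59. Over all probes the arrays were ordered in this way for 29.4% and the median was 0.08, and nothing is read from the comparison, since the family was chosen through its E2 24 h level. For Sprr1a the HPTE level was 0.0565 of the E2 level, for Sprr2a probe A 0.0256, for Sprr2f 0.0209 and for Sprr2d 0.017. For Sprr2b, Sprr2e, Sprr2g, Sprr2j and Sprr2k the ratio lay between 0.0761 (Sprr2g) and 0.174 (Sprr2b).

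Compared with HPTE at 2 h, HPTE at 24 h was higher for 4 of the 10 probes, against 54.1% of all probes called in either direction. At 2 h Sprr1a had read 123, 129 and 133, Sprr2f 610, 778 and 549, and Sprr2a probe A 75.9, 52.8 and 58.3. The log2 differences between the times were 1.91 for Sprr1a (SE 0.42, limma adjusted p = 0.00136), 1.87 for Sprr2f (SE 0.44, limma adjusted p = 0.00207) and 1.22 for Sprr2a probe A (SE 0.38, limma adjusted p = 0.0122). Sprr2d, at 11.7, 6.2 and 7.01 and not well above background on any HPTE 2 h array, was at least 3.51-fold higher at 24 h (limma adjusted p = 0.000427). No array of HPTE 2 h shared a slide with one of HPTE 24 h. With slide as a block, Sprr1a, Sprr2a probe A and Sprr2d were still called, Sprr2f had a log2 difference of 0.97 (limma adjusted p = 0.059) and Sprr2j was called in its place.

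Scaling and background correction changed how many of these calls were made. With spike-in scaling, under which the median of all probes between HPTE 24 h and vehicle moved to -0.36, only Sprr1a and Sprr2f were called. With normexp background correction the count was 1 (Sprr2f), and the log2 difference of Sprr2d fell to 0.03. On the 1 slide that held both groups, HPTE 24 h replicate 3 exceeded vehicle replicate 3 by a log2 difference of 2.08 for Sprr1a, 1.98 for Sprr2f, 1.41 for Sprr2a probe A and 0.41 for Sprr2b. Without both arrays of the later scan day, which include HPTE 24 h replicate 2, 5 probes were called, and with slide as a block Sprr2b was no longer called and 4 were.

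BPA gave fewer calls among the Sprr probes. At 2 h, Sprr2f read 1045, 1536 and 1316 against a vehicle range of 482 to 567, and rose by a log2 difference of 1.29 (SE 0.44, 2.45-fold, limma adjusted p = 0.0239). All 3 BPA arrays lay above all vehicle arrays. It was 1 of 10 probes called higher, against 19.3% of all probes. The other call was Sprr2a probe B, at 114684, 144460 and 138000, which fell by a log2 difference of 0.30 (SE 0.10, limma adjusted p = 0.02), against 30.2% of all probes called lower.

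Both calls of BPA at 2 h depended on single arrays and on the scaling. The count was 0 without vehicle replicate 1, 1 without vehicle replicate 3, 1 without BPA 2 h replicate 2, and 0 with spike-in scaling. Between arrays of the same slide the Sprr2f difference was 1.45 and 0.88 on the 2 slides that held both groups. Sprr1a (117, 232 and 119) and Sprr2a probe A (47.1, 160 and 64.1) were highest on BPA 2 h replicate 2 and were not called, with log2 differences of 0.56 (95% confidence interval -0.35 to 1.46) and 0.64 (-0.16 to 1.45).

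At 24 h after BPA, limma called none of the 10 Sprr probes, and 1 had an unadjusted p under 0.05, against 5.09% of all probes called higher and 8.03% lower. Sprr2f read 1098, 488 and 2001, so that 1 array lay at the vehicle level and 1 inside the HPTE 24 h range, with a log2 difference of 0.97 (95% confidence interval 0.03 to 1.91, limma adjusted p = 0.168). Without BPA 24 h replicate 2, the array at the vehicle level, 1 probe was called. Sprr1a read 190, 139 and 186, above all vehicle arrays, with a log2 difference of 0.76 (-0.14 to 1.67, limma adjusted p = 0.262). For Sprr2d 1 of 3 BPA 24 h arrays was well above background (18.3, with 7.15 and 12.8 on the others). Sprr2a probe A read 78.2, 57.1 and 43.3, overlapping vehicle.

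Between 2 h and 24 h of BPA no Sprr probe was called by limma and none had an unadjusted p under 0.05, against 48.4% of all probes called. The largest differences were -0.44 for Sprr2a probe A (95% confidence interval -1.24 to 0.36) and -0.33 for Sprr2f (-1.27 to 0.61). With slide as a block 1 probe, Sprr2f, was called. Against E2 at 24 h, all 3 BPA arrays lay below both E2 arrays for 9 of the 10 probes, with a median log2 difference of -3.52, against 31.5% of all probes so ordered and a median of 0.13. Nothing is read from this either. The BPA level was 0.02 of the E2 level for Sprr1a, 0.0103 for Sprr2a probe A and 0.00913 for Sprr2f.

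HPTE and BPA were given at the same amount, so their arrays were also compared directly at each time. At 24 h, HPTE exceeded BPA for Sprr2d, which read 27.9, 58.0 and 36.4 against 18.3, 7.15 and 12.8, by a log2 difference of 1.71 (95% confidence interval 0.77 to 2.65, limma adjusted p = 0.0427). Of the 3 BPA 24 h arrays 2 were not well above background, so the size of the difference rests in part on readings at background. This was 1 of 10 Sprr probes called, against 4.08% of all probes. The Sprr2d call was lost when any one of 5 of the 6 arrays was left out, all but BPA 24 h replicate 1 (without HPTE 24 h replicate 1, Sprr1a was called in its place), and the difference was -0.29 with normexp background correction.

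The other members with a high HPTE level missed the threshold between the compounds. All 3 HPTE arrays lay above all 3 BPA arrays for Sprr1a, with a log2 difference of 1.50 (95% confidence interval 0.59 to 2.40, limma adjusted p = 0.0597), and for Sprr2a probe A, with a difference of 1.31 (0.51 to 2.11, limma adjusted p = 0.0619). Sprr2f differed by 1.20 (0.25 to 2.14, limma adjusted p = 0.135), with BPA 24 h replicate 3 inside the HPTE range. The remaining 6 probes differed by -0.09 to 0.18, and the interval of Sprr2b ran from -0.20 to 0.57.

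Within slides, the HPTE excess over BPA was larger on the slide of the later scan day (HPTE replicate 2, BPA replicate 3) than on the earlier slide that held both (HPTE replicate 3, BPA replicate 1). The log2 differences were 2.42 and 1.41 for Sprr1a, 2.00 and 0.82 for Sprr2a probe A, and 1.04 and 0.91 for Sprr2f. Without both arrays of the later scan day no probe was called.

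At 2 h, HPTE and BPA differed for none of the 10 probes by limma, and 1 had an unadjusted p under 0.05, against 0.438% of all probes called. Sprr2f was lower after HPTE on all 3 arrays, with a log2 difference of -1.01 (95% confidence interval -1.95 to -0.07, limma adjusted p = 0.275). With normexp background correction, which moved the median of all probes to -0.59, 7 of the 10 were called. The change from 2 h to 24 h was also compared between the compounds, and limma called none of the 10, against 0.0863% of all probes. At an unadjusted p under 0.05 there were 4, Sprr2d (2.44, limma adjusted p = 0.104), Sprr2f (2.20, limma adjusted p = 0.134), Sprr1a (1.70, limma adjusted p = 0.205) and Sprr2a probe A (1.66, limma adjusted p = 0.17), each with a larger increase under HPTE. The Sprr2d value is a fitted one that rests on HPTE 2 h and BPA arrays below background.

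**Figure D2:**
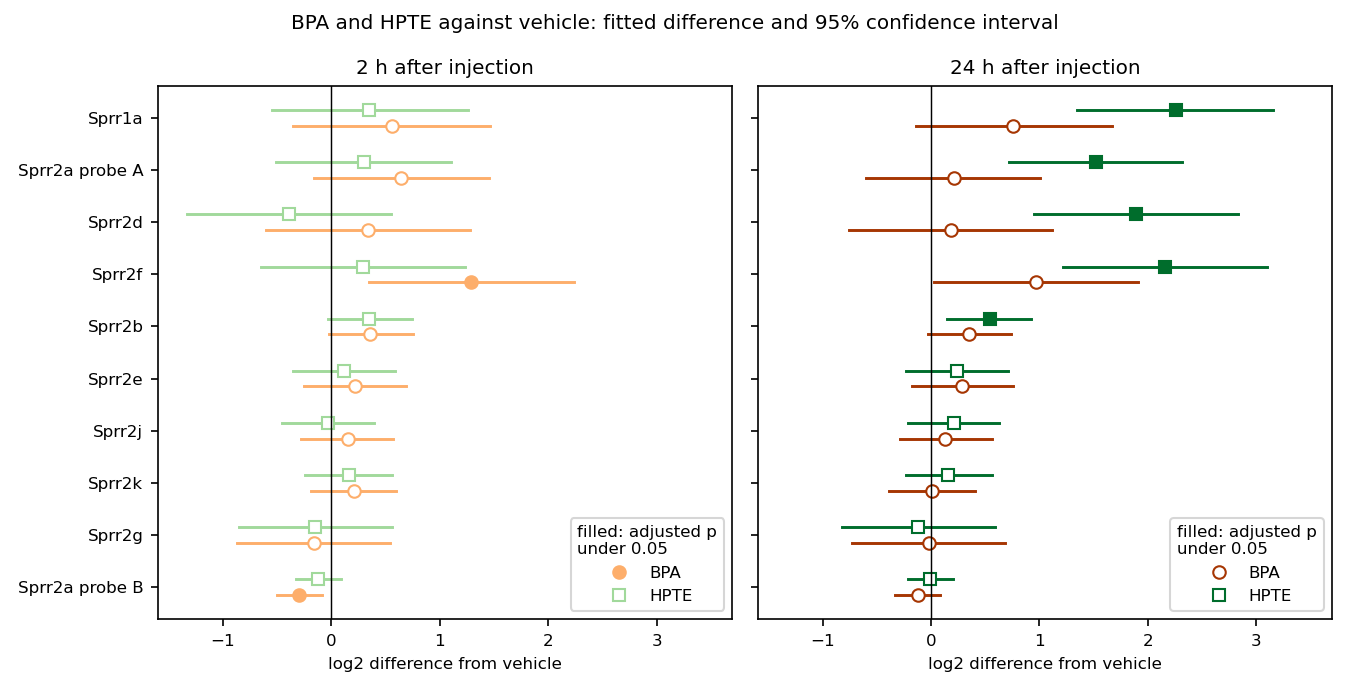
Fitted log2 difference from vehicle (points) with its 95% confidence interval (bars) for the 10 tested Sprr probes after BPA (circles) and HPTE (squares), at 2 h on the left and 24 h on the right; filled points had a limma adjusted p under 0.05. At 24 h the HPTE points of Sprr1a, Sprr2a probe A, Sprr2d and Sprr2f lie between 1.52 and 2.26, where the Sprr2d points rest on vehicle arrays below background, and at 2 h the filled points are Sprr2f and Sprr2a probe B under BPA.

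At 2 h few Sprr probes were called under any compound. E2 at 2 h gave no call by limma among the 10 probes, 1 at an unadjusted p under 0.05, against 11.1% of all probes called higher and 17.0% lower. Sprr2b, at 1112, 1287 and 1177, lay above all vehicle arrays with a log2 difference of 0.43 (95% confidence interval 0.05 to 0.82, limma adjusted p = 0.0897), and Sprr2f differed by 0.71 (-0.23 to 1.65). E2 2 h replicate 2, the array with the most Cpa1, was the lowest of its group for Sprr1a and Sprr2f and the highest for Sprr2b. HPTE at 2 h gave no call and none at an unadjusted p under 0.05, against 19.9% of all probes called higher and 28.2% lower. The differences of the 9 probes other than Sprr2d ran from -0.15 for Sprr2g to 0.35 for Sprr1a, and Sprr2d was not well above background on any array of either group.

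Set against E2 at 2 h, BPA at 2 h was called for 1 of the 10 probes, Sprr2a probe B, at a log2 difference of -0.37 (SE 0.10, limma adjusted p = 0.0172), against 19.0% of all probes. That call was lost without E2 2 h replicate 1 or BPA 2 h replicate 1, and with slide as a block. HPTE at 2 h differed from E2 at 2 h for none of the 10 by limma and for none at an unadjusted p under 0.05, against 16.6% of all probes.

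The order of the groups differed between members. E2 24 h came first for all tested probes but Sprr2a probe B, and HPTE 24 h second for Sprr1a, Sprr2a probe A, Sprr2b, Sprr2d, Sprr2f and Sprr2j. The HPTE 24 h arrays of Sprr1a did not overlap BPA 24 h, the next group in the order, and overlapped BPA 2 h, as did those of Sprr2a probe A and Sprr2f. Those of Sprr2d overlapped no other group. From the third place down, each group of Sprr1a overlapped the next, in the order BPA 24 h, BPA 2 h, HPTE 2 h, E2 2 h and vehicle. The vehicle and HPTE 2 h arrays of Sprr2d were all at background and have no order.

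Over all 20 arrays the 10 pairs among Sprr2b, Sprr2e, Sprr2g, Sprr2j and Sprr2k correlated with Pearson r between 0.934 and 0.994, and the 20 pairs between these and the 4 probes of Sprr1a, Sprr2a (probe A), Sprr2d and Sprr2f with r between 0.841 and 0.963. Both sets were chosen after their values were seen. Over the 18 arrays without E2 24 h, r was 0.664 to 0.848 among the 4 probes, 0.146 to 0.882 among the 5, and -0.163 to 0.558 between the sets. Arrays and slides were shared by all pairs, as was sequence by some.

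**Figure D3:**
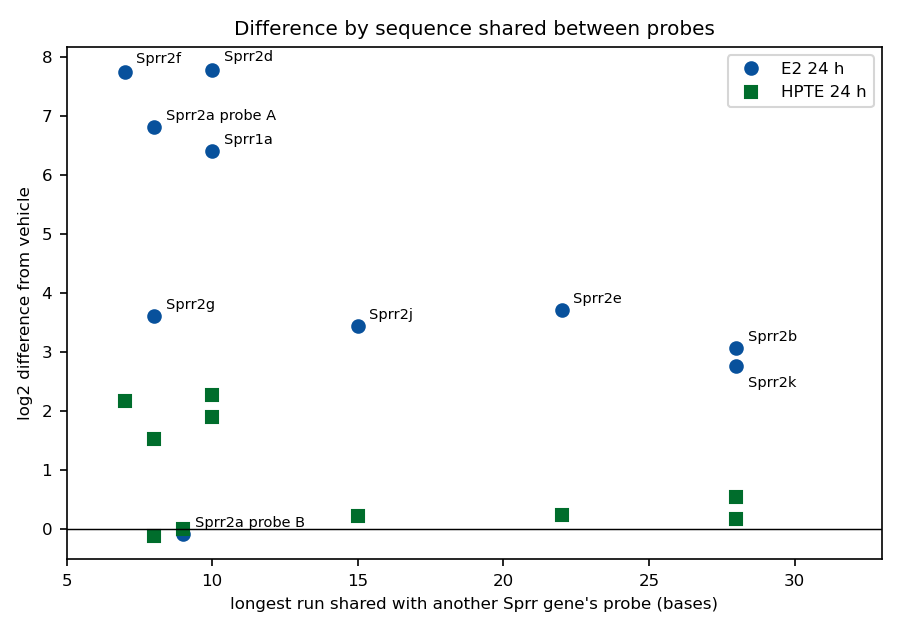
Log2 difference from vehicle of the 10 tested Sprr probes after 24 h of E2 (circles) or HPTE (squares), plotted against the longest run of bases that the probe shares with the probe of another Sprr gene. Probes with runs of 15 to 28 bases lie between 2.76 and 3.71 after E2, those of Sprr1a, Sprr2a probe A, Sprr2d and Sprr2f between 6.40 and 7.77 (for Sprr2d a fitted value against vehicle arrays below background), and Sprr2g, with a run of 8 bases, at 3.60.

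Genes of the same cellular structure were counted too. Each list count in this report stands beside the shares of all probes called higher and lower. At 24 h these were 26.3% and 37.6% for E2, 14.9% and 19.1% for HPTE, and 5.09% and 8.03% for BPA. At 2 h they were 11.1% and 17.0% for E2, 19.3% and 30.2% for BPA, and 19.9% and 28.2% for HPTE. Nothing is read from a count near its share. Of 45 listed genes of the cornified envelope and its cross-linking, 41 were on the array, 22 were tested, and on vehicle arrays 18 of the 41 were never well above background. After E2 at 24 h, 5 were called higher and 4 lower, with a median log2 difference of 0.06 against -0.15 over all probes. Involucrin (Ivl), a major envelope protein, was well above background on the 2 E2 24 h arrays only, at scaled intensities of 25.8 and 42.6. It was 1 of the 5 and passed the filter on dim probes through these arrays alone, so its call is not read. Loricrin (Lor) rose by 0.82 (limma adjusted p = 0.00155) and the cross-linking enzymes Tgm2 by 0.73 (limma adjusted p = 7.48e-06) and Tgm1 by 0.44 (limma adjusted p = 0.0378), while trichohyalin (Tchh, -1.42), sciellin (Scel, -1.33), suprabasin (Sbsn, -1.25) and cornifelin (Cnfn, -0.79) fell.

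After HPTE at 24 h, 1 of the 22 was higher (Tgm1, 0.42, limma adjusted p = 0.0485) and 1 lower (Cnfn, -1.10, limma adjusted p = 0.0042). At 2 h, 0 were higher and 2 lower after E2, 0 and 7 after BPA, and 1 and 4 after HPTE, and BPA at 24 h gave none in either direction. The 13 S100 genes of the complex encode small calcium-binding proteins. They gave 6 higher and 1 lower after E2 at 24 h and the same counts after HPTE at 24 h, with medians of 0.31 and 0.30. The shares of all probes were 26.3% and 37.6% after E2 and 14.9% and 19.1% after HPTE. Among them S100a14 rose by 1.96 after E2 and 1.75 after HPTE, and S100a7a fell by 1.60 after HPTE and was not well above background after E2 (limma adjusted p = 2.4e-08). At 2 h none of the 13 was higher and 0, 5 and 6 were lower after E2, BPA and HPTE, and BPA at 24 h gave 1 higher and 0 lower.

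A list of 10 genes known to respond to estrogen in uterine epithelium gave 9 higher and none lower after E2 at 24 h. Over all probes 26.3% were higher and 37.6% lower. The list median was a log2 difference of 2.43. This median is not ranked against that of the Sprr family, which was chosen through the same difference. Lipocalin 2 (Lcn2) rose by 4.36, the mucin Muc1 by 3.76, Clca3 by 2.69 and lactotransferrin (Ltf) by 2.68. After HPTE at 24 h, 4 were higher and 1 lower, with Muc1 at 1.86, Clca3 at 1.50 and Lcn2 at 0.69, and after BPA at 24 h 2 were higher and 0 lower. The 2 h counts of higher and lower were 3 and 0 for E2, 3 and 1 for BPA and 3 and 3 for HPTE.

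Transcription factors of the AP-1, Ets and Klf groups are known to act on Sprr promoters. They were listed together with other epithelial factors, of which Grhl1, Grhl2, Ovol1, Zfp750, Cebpa and Cebpb were tested. Of 19 tested factors, 13 were higher at 2 h after each of E2, BPA and HPTE, and 0, 3 and 4 were lower. The medians were 1.36, 1.17 and 1.53. Over all probes 11.1%, 19.3% and 19.9% were higher and 17.0%, 30.2% and 28.2% lower. The AP-1 gene Fos rose by 5.38 after E2, 4.28 after BPA and 4.67 after HPTE, and Jun by 1.70, 0.83 and 1.20. At 24 h the counts of higher and lower were 4 and 3 for E2, 1 and 3 for HPTE, and 0 and 0 for BPA. The epithelial Ets factor Elf3 was the factor called higher in HPTE at 24 h (1.08, limma adjusted p = 4.69e-05), and it was also higher in E2 at 24 h (2.99, limma adjusted p = 1.5e-09), whereas BPA at 24 h gave 0.22 (limma adjusted p = 0.326). Elf3 was called higher at 2 h as well, by 1.67 after E2, 0.93 after BPA and 1.28 after HPTE. Klf4 was higher by 1.06 in E2 at 24 h and lower by -0.33 in HPTE at 24 h.

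The promoters of the family are shown for the motif of the AP-1 factors and for an octamer. The RefSeq promoter table (GRCm38.p6, 250 bases before to 50 after the start) held 12 family windows. Those of 1 strongly induced gene outside the Sprr2 group and of 3 neighbouring Sprr2 genes are shown 5′ to 3′ in the direction of transcription. Capitals mark the AP-1 motif TGANTCA and the octamer ATTTGCAT.
Sprr1a (chr3:92485832-92486131, minus strand): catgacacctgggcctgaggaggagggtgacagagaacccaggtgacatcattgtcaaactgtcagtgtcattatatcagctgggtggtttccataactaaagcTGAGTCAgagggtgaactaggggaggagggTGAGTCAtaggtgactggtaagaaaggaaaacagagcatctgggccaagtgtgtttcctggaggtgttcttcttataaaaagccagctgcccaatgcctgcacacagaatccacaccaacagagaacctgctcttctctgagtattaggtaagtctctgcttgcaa
Sprr2d (chr3:92338890-92339189, plus strand): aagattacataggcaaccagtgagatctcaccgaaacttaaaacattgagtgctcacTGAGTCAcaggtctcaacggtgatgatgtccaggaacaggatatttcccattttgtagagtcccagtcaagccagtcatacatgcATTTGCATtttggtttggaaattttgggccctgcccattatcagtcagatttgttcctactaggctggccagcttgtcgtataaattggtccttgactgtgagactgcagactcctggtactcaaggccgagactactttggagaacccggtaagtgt
Sprr2e (chr3:92351893-92352192, plus strand): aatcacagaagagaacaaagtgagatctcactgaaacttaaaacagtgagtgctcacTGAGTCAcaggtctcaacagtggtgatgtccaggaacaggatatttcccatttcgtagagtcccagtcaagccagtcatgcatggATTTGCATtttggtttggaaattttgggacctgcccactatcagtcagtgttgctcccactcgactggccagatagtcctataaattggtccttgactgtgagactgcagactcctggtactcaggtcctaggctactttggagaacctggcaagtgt
Sprr2f (chr3:92364937-92365236, plus strand): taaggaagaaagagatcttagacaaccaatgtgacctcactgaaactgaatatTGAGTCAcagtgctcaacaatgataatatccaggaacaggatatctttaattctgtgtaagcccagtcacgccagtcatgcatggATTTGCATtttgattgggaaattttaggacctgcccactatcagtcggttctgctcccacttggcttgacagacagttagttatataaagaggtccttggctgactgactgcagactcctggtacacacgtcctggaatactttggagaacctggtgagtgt

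Motifs were searched on both strands. TGANTCA occurred in 9 of the 12 family windows and in 7.93% of 27025 windows of the same length, and ATTTGCAT in 7 of 12 and in 1.75%. The TATA box TATAAA occurred in 9 of 12 and in 14.2%. The palindromic estrogen response element GGTCANNNTGACC was in 0 of 12 and in 0.0666% of all windows, which says only that these letters are not in these windows. In Sprr2b, Sprr2d, Sprr2e, Sprr2f, Sprr2h, Sprr2i and Sprr2k the octamer began between bases -112 and -108 from the start and the TATA box at base -29.

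Identity of promoter windows was taken at the best ungapped offset. Its relation to the size of the Sprr differences was not tested. The Sprr2d and Sprr2e windows were 88.0% identical. After E2 at 24 h the Sprr2e probe gave a log2 difference of 3.71, and the Sprr2d level was at least 167-fold that of vehicle. The Sprr2e probe shares sequence with those of Sprr2b and Sprr2k and is also assigned to Sprr2i. Its value is therefore not tied to the Sprr2e promoter alone. Sprr2h and Sprr2k windows were 67.3% identical, with the Sprr2h probe above background on 1 array. The Sprr2a1 and Sprr2a2 windows were identical, and the Sprr2a3 window held the same sequence at a shifted position. None of them held any of the 4 motifs. The Sprr2a1 window ends in gggtgaggcagg, which in Sprr2b lies just before the TATA box. The absence therefore says nothing of bases beyond these windows. The Sprr1a window held the AP-1 motif at 2 places and no octamer.

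**Figure D4:**
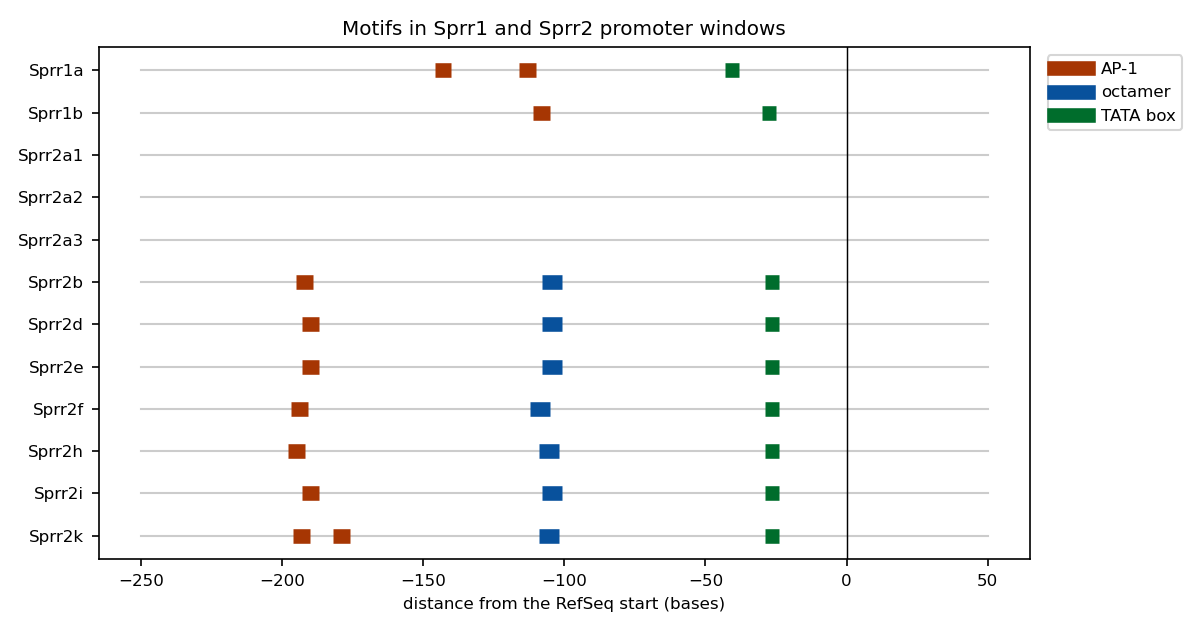
Positions of the AP-1 motif, the octamer and the TATA box in the 12 Sprr1 and Sprr2 windows of the RefSeq promoter table (GRCm38.p6), plotted as distance from the annotated start in bases. All octamer and TATA box matches were on the strand of the gene, whereas TGANTCA matches both strands wherever it occurs and has no orientation. The octamer and the TATA box lie at nearly the same distance in 7 Sprr2 windows. The 3 Sprr2a windows, which share most of their sequence, hold no match, which says nothing of bases beyond them.

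Keratins of stratified epithelium varied between single arrays, also at E2 2 h, where no Sprr probe was called. On the E2 2 h arrays Krt5 read 3960, 703 and 1840, and Krt14 read 840, 176 and 408. Of 17 markers of squamous or basal epithelium, 14 were tested, and Dsg3, Dsg1a and Dsc3 were not well above background on any array. Their summed scaled intensity was 15200 to 23000 on vehicle arrays, 30600 to 145000 on E2 24 h arrays, 11400 to 15900 on BPA 24 h arrays and 6400 to 50300 on HPTE 24 h arrays. After E2 at 24 h 4 of 14 were called higher (Krt6a, Krt6b, Krt14 and Krt13, of which Krt6a passed the filter on dim probes through the E2 24 h arrays alone) and none lower, and after HPTE at 24 h 1 was higher (Krt6b, limma adjusted p = 0.0461) and 1 lower (Krt10, -0.31, limma adjusted p = 0.0191). BPA at 24 h gave 0 higher and 1 lower, and at 2 h the counts of higher and lower were 1 and 1 for E2, 1 and 2 for BPA and 1 and 1 for HPTE.

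Krt14, a keratin of basal cells, read 436, 1060 and 497 on the vehicle arrays, 3230 and 27100 on the E2 24 h arrays, and 94.7, 7910 and 1530 on the HPTE 24 h arrays. The 2 E2 24 h arrays differed 8.39-fold in Krt14, 1.82-fold in Sprr1a, 1.04-fold in Sprr2a probe A, 1.15-fold in Sprr2f and 2.05-fold in Sprr2d. HPTE 24 h replicate 2 was the highest of its group in Krt14, Krt5 and Krt6a and also in Sprr1a, Sprr2a probe A, Sprr2d and Sprr2f. Krt6b read 97.5, 38.1 and 13.7 on the HPTE 24 h arrays and was highest on replicate 1.

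HPTE 24 h replicate 1 had the lowest level of all 20 arrays for Krt14 (94.7) and for Krt5 (169) and the highest of its group for Krt6b (97.5). Its levels of Sprr1a (221), Sprr2f (1508), Sprr2a probe A (124) and Sprr2d (27.9) exceeded every vehicle array. Sprr2h, detected on 1 array, was detected on the array with the highest Krt14. The part of squamous cells in the Sprr differences was not tested.

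**Figure D5:**
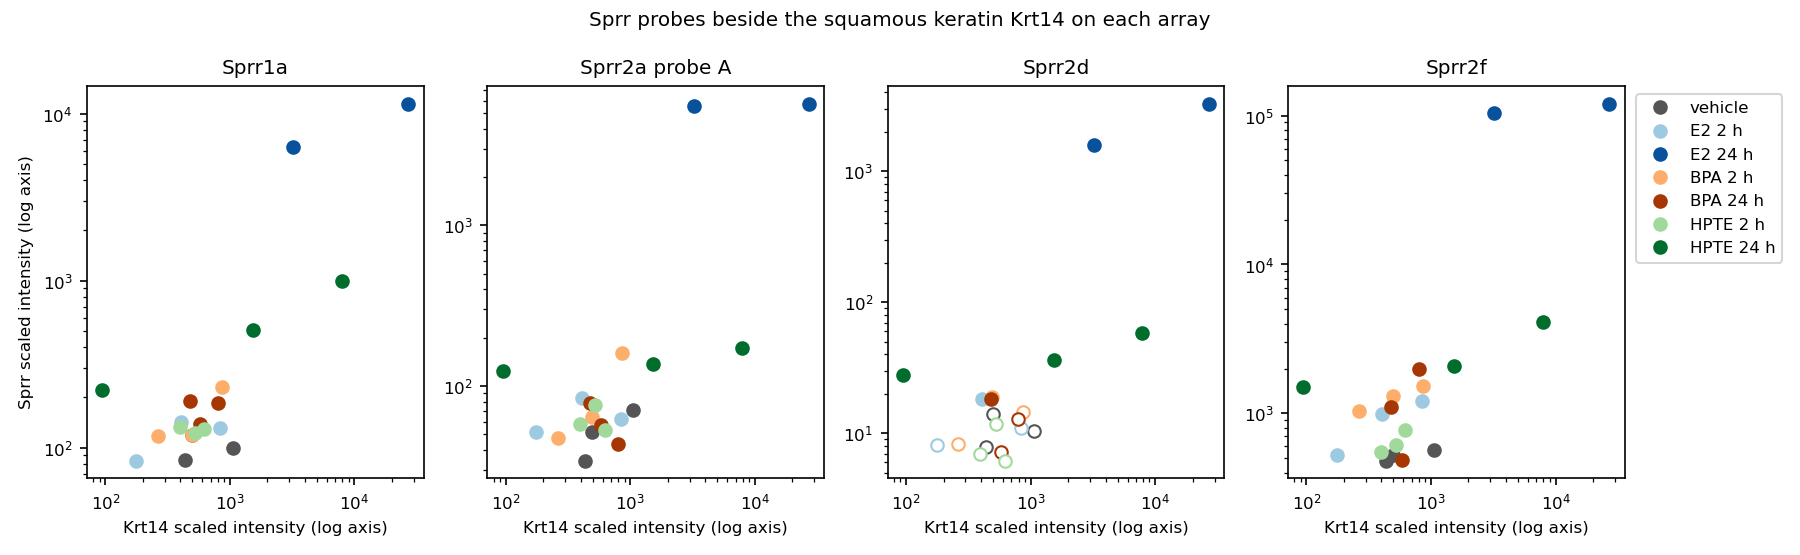
Scaled intensity of Sprr1a, Sprr2a probe A, Sprr2d and Sprr2f against that of the keratin Krt14 on each of 20 arrays (arbitrary units, log axes), coloured by group; open points mark arrays on which Sprr2d was not well above background. HPTE 24 h replicate 1, at a Krt14 level of 94.7, lies left of all other arrays with Sprr levels above the vehicle arrays.

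Markers of simple epithelium were counted as well, 8 of them tested (such as Krt8, Krt18 and Cdh1). At 24 h, 6 were higher after E2 (median log2 difference 1.12), 7 after HPTE (0.72) and 2 after BPA (0.35), with none lower. Over all probes 26.3%, 14.9% and 5.09% were called higher. No Sprr probe was called after BPA at 24 h. The summed scaled intensity of the simple epithelium markers was 150000 to 174000 on vehicle arrays and 364000 to 415000 on E2 24 h arrays. It was 256000 to 282000 on HPTE 24 h and 207000 to 221000 on BPA 24 h arrays. The part of simple epithelium in the Sprr differences was not tested. At 2 h the counts of higher and lower were 3 and 0 for E2, 1 and 4 for BPA and 1 and 1 for HPTE. Among Sprr probes at 2 h, E2 and HPTE gave no call, and BPA gave Sprr2f higher and Sprr2a probe B lower.

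Of 5 smooth muscle markers, 4 were higher after E2 at 24 h, 5 after HPTE at 24 h and 2 after BPA at 24 h, with none lower, and at 2 h 1 was higher after HPTE. Of 8 tested neutrophil markers, 1 was higher and 2 lower after E2 at 24 h, 0 and 0 after HPTE at 24 h, 1 and 0 after BPA at 24 h, and at 2 h 0 and 1 after E2, 1 and 0 after BPA and 0 and 1 after HPTE. Of the 6 uterine markers none was called higher in any group, and 3, 1 and 0 were lower at 24 h after E2, HPTE and BPA and 1, 4 and 5 at 2 h after E2, HPTE and BPA.

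The transcripts whose profile over the 20 arrays was most like the mean of the family were sought among 15408 gene symbols, with 1 probe per Sprr gene (the brighter probe B for Sprr2a). Among the highest were Ostc (Pearson r = 0.984), Gmds (0.982), Muc20 (0.98), Egln3 (0.98), Pole2, Tmem14c and Atp5g1 (0.978 each). Ostc is part of the oligosaccharyltransferase complex, Gmds is an enzyme of nucleotide sugar metabolism, and Muc20 is a mucin. Their log2 differences between E2 24 h and vehicle ran from 1.76 (Ostc) to 3.91 (Muc20). With probe A for Sprr2a, Ostc and Gmds led again.

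Without the E2 24 h arrays the likeness named other transcripts, led by Drr1 (r = 0.897), Ap2s1 and Stoml2 (0.891 each), so that the first list rests on the 2 E2 24 h arrays. By member, the closest profile was Znhit1 for Sprr1a (r = 0.979), Lcn2 for Sprr2d (0.975), Snf8 for Sprr2f (0.976), Mug1 for Sprr2b (0.972), Mall for Sprr2k (0.97), Gmds for Sprr2j (0.97), Ppcs for Sprr2e (0.968) and Rpa2 for Sprr2g (0.954). All profiles share the same arrays, and no test was made.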

How the data were processed

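The authors extracted scanner images with Agilent Feature Extraction 9.5 and deposited, per array, spot intensity (arbitrary units, background subtracted, and not scaled between arrays per the file headers) and flags of type other for control, saturated, outlying and well above background spots. The deposited series matrix held the same intensities on 20 of 20 arrays (tolerance 1e-06).

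From the log2 of each processed intensity the array's own 75th percentile (1320 to 2046 before the log) was subtracted. Tests covered 32456 probes that some group had well above background on all its arrays and that were missing on 2 arrays at most. Per array, 72.7% to 81.3% of probes passed the background flag. The number of arrays limits the precision. A means model over 7 groups was fitted with limma 3.58.1 in R 4.3.3 (two-sided, Benjamini-Hochberg over all tested probes). Each array held 1 uterus per the labels. "At least" folds compare the bright group with the higher, per array, of the dim probe and the lowest signal well above background.

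All Sprr1 and Sprr2 probes were accounted for. Lists covered the cornified envelope, S100 genes, estrogen-responsive epithelium, and AP-1, Ets, Klf and other epithelial transcription factors. They also covered markers of uterus, simple and squamous epithelium, smooth muscle, neutrophils, pancreas and sperm cells. Each list held 1 probe per symbol (highest mean). Genes most like the family were the 8 symbols, and the 3 per Sprr gene, with the highest Pearson r over 20 arrays, leaving out clone and accession names. Some of these are not reported here. The members and lists were chosen with earlier results of these data known. Motifs and shared runs were searched by exact match in the probe sequences of the array files and in RefSeq promoter windows (GRCm38.p6).

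Alternatives were normexp background correction (offset 50), quantile normalization, no scaling, scaling to 8 of 10 spike-in probes, other filters on dim probes, array weights, the compared groups alone, slide, scan day or replicate number as a block, and leaving out each array. Others were chosen after seeing the data, namely leaving out both E2 24 h arrays, both arrays of the later scan day or E2 2 h replicates 2 and 3, differences within slides, and other settings of the likeness search. The fitting steps were tested on simulated data.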

Additional observations from a re-analysis of the deposited data

Results flagged for a closer look

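The HPTE 24 h arrays differed from the HPTE 2 h arrays for 4 Sprr probes (limma adjusted p under 0.05). The log2 level was higher at 24 h by 1.91 for Sprr1a, 1.87 for Sprr2f and 1.22 for Sprr2a probe A. For Sprr2d the fitted value was 2.29, which is no bound because its HPTE 2 h arrays were not well above background. Over all probes 54.1% were called in this comparison. With slide as a block Sprr2f was no longer called (0.97, limma adjusted p = 0.059), and with normexp 1 Sprr probe was called. The 3 vehicle arrays, all labelled as 24 h samples, take no part in this difference. A change with time in the absence of HPTE was not measured, and no slide held arrays of both groups. The effect of HPTE itself was therefore not compared between the times.

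The Sprr2h probe, which was not tested, had a scaled intensity of 205 on E2 24 h replicate 3 and was well above background there, while the 3 vehicle arrays were not.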

How the results depend on the processing

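Of 13 Sprr values called, 1 of 242 alternative values had the opposite sign and 51 were no longer called. The reversal was Sprr2d between HPTE and BPA at 24 h (-0.29 with normexp). Among 107 values not called, 233 of 2056 alternative values changed sign and 24 were called. Without Sprr2a probe B, 36 differences with E2 24 h kept their sign in 599 of 599 alternative values. HPTE 24 h against vehicle gave 5 calls, 1 with normexp, 2 with spike-in scaling and 4 to 5 with an array left out. HPTE 24 h against HPTE 2 h gave 4, and 1 with normexp. HPTE against BPA at 24 h gave 1 call, and 0 with normexp, quantile, no or spike-in scaling, no filter, the compared groups alone, slide as a block, the replicate block or without the later scan day, 2 with probes above background on all arrays, 3 with scan day as a block, 4 with array weights, and 0 to 1 with an array left out. BPA 2 h against vehicle gave 2 calls, 1 with no scaling, 0 with spike-in scaling, 1 with the compared groups alone and 0 to 2 with an array left out. BPA 2 h against E2 2 h gave 1, and 0 with quantile, no or spike-in scaling, array weights, the compared groups alone or slide as a block, and 0 to 1 with an array left out. From 0 calls, E2 2 h reached 1 with the compared groups alone, HPTE 2 h 0 to 1 without HPTE 2 h replicate 2, BPA 24 h 0 to 1 without BPA 24 h replicate 2, BPA 24 h against BPA 2 h 1 with slide as a block, and HPTE 2 h against BPA 2 h 7 with normexp. The median Sprr difference of 3.65 between E2 24 h and vehicle was 3.24 with normexp and 3.43 to 3.80 with an array left out. Against E2 2 h (3.47) it was 3.14 with normexp and 3.73 with no scaling, for BPA against E2 at 24 h (-3.52) -3.03 with normexp, and for HPTE against E2 at 24 h (-3.59) -3.27 with normexp and -3.93 with spike-in scaling. The cause of these shifts was not tested.

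Same-numbered arrays did not deviate together (57 pairs, r -0.36 to 0.334, median -0.0486, 12 over 0.1), so the numbers were not read as pairs. As a replicate block they changed 1 count, HPTE against BPA at 24 h, to 0 (Sprr2d 1.71, limma adjusted p = 0.0501). Signal near background limits Sprr2d, Sprr2h and Sprr1b, and the 2 arrays of E2 24 h limit its values.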
